A study of Mus musculus with 5 samples.

Results

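The interferon regulatory factors (IRFs) are transcription factors that share an N-terminal DNA-binding domain with conserved tryptophans. The 8 family genes Irf1, Irf2, Irf3, Irf4, Irf5, Irf7, Irf8 and Irf9 were taken by symbol from an array table of 19505 genes. Each of the 8 was read by a single probe set. The arrays held RNA of tumour-associated macrophages, the macrophages found inside a growing tumour, from 3 MyD88-ko samples and 2 wild-type (WT) samples of C57BL/6 mice. MyD88 couples most Toll-like receptors and the IL-1 receptor family to their kinases, and the comparison asked which transcripts depended on it. All mice, female or male and 6 to 12 weeks old, carried subcutaneous B16-F10 tumours, a mouse melanoma line, and cells were taken on day 15. The sorting gate took cells carrying the leukocyte antigen CD45, the myeloid integrin CD11b and the product of Adgre1, and left out cells with CD3, B220 or NK1.1. Spleen is given as the source of the cells in the growth protocol, while every label calls them tumour-associated macrophages. Nothing in the labels ties the arrays to separate mice, so a p-value here reflects the variation among these 5 arrays, part or all of which may be technical.

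IRFs bind a repeat of GAAA called the interferon-stimulated response element (ISRE). IRF3 and IRF7 wait in the cytoplasm until kinases below the nucleic acid sensors phosphorylate them, after which they switch on the interferon genes. In the endosomal Toll-like receptor pathway IRF5 and IRF7 bind to MyD88 itself. IRF9 joins STAT2 in ISGF3, the factor that answers type I interferon. IRF1 is itself induced by interferon gamma and IRF2 competes with it for the same sites, while IRF8 and IRF4 bind with PU.1 and set the fate of myeloid cells.

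None of the 8 genes changed between genotypes by limma at a p under 0.05 after Benjamini-Hochberg adjustment over every gene of the table. Over all genes 37 passed, which is 0.19% of those tested. At an unadjusted limma p under 0.05 there was 1 member, Irf2, against 12.6% of all genes. The arrays of the genotypes did not overlap for 2 members, Irf2 and Irf9, both lower in MyD88-ko, against 27.8% of all genes (12.9% counting those lower in MyD88-ko). Counted in both directions, these shares lie near the background. The share lower in MyD88-ko was above that of all genes but rests on 2 genes. Differences were negative for 5 of the 8 members, against 46.9% of all genes. The median difference of the members was -0.17 on the log2 scale, MyD88-ko minus WT, and that of all genes was 0.02. Both values moved when single arrays were left out. The median was -0.030 without WT replicate 1, -0.099 without MyD88-ko replicate 2, -0.37 without MyD88-ko replicate 3 and -0.38 without WT replicate 2, and all 8 differences were negative without MyD88-ko replicate 3.

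The values are log2 intensities without detection calls. A background limit was set on each array at the 95th percentile of its 5222 negative-control probe sets, and it lay between 6.55 and 6.96. Irf1, Irf2 and Irf8 were above it on all 5 arrays, as were 15.3% of all genes. Irf7 was above it on 3 arrays and Irf5 on 2. Irf3, Irf4 and Irf9 were above it on none, which does not show that they were not expressed. Pearson correlations between arrays ran from 0.9695 to 0.9917 across genes. The targeted gene Myd88 lay between 7.01 and 7.73 on the MyD88-ko arrays and at 8.46 and 8.40 on the WT arrays, and its difference of -0.99 missed the threshold (limma, adjusted p = 0.179). The labels do not say which part of Myd88 was deleted, so its probe set may lie outside that part.

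**Figure D1:**
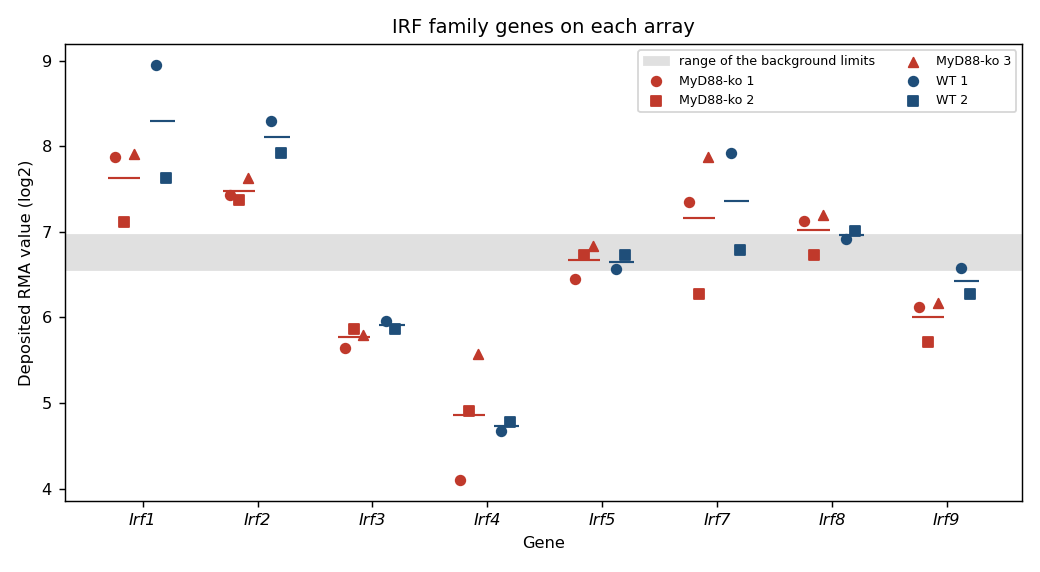
Deposited log2 RMA value of each of the 8 IRF genes (x axis) on each array, with MyD88-ko arrays in red, WT arrays in blue, replicate numbers as marker shapes and group means as short lines. The grey band runs from 6.55 to 6.96, the range of the background limits. Irf2 and Irf9 are the genes whose red and blue points do not overlap.

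The upstream sequence of the members is shown for the 3 genes in which interferon or NF-κB motifs were found. Windows of 250 bases upstream of each start site were read from RefSeq promoters (GRCm38.p6), which held 11 windows for the 8 members. The motifs were an ISRE core (2 copies of GAAA with 2 bases between them), the interferon gamma activated site (GAS) as TTCNNNGAA, and the κB consensus, each searched on both strands. Of all 32851 windows, 2.98% held the ISRE core, 7.02% held GAS and 7.25% held a κB match. Capitals mark the matches, and each sequence runs 5′ to 3′ towards the start site.
Irf1: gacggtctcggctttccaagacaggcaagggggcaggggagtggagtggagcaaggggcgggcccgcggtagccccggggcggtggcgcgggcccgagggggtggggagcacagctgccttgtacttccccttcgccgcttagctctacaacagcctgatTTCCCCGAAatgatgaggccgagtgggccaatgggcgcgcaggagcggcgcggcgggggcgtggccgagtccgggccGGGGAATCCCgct
Irf2: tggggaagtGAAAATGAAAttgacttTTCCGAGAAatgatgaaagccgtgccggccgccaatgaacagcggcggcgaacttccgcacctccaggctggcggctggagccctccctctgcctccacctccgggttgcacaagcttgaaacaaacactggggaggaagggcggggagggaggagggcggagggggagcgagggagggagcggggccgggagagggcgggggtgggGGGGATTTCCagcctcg
Irf8: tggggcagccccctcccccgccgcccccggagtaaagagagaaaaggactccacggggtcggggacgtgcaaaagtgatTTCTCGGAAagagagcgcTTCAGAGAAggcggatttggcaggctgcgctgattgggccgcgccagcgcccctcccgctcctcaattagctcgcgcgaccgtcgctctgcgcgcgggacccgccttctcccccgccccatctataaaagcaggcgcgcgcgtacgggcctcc
The Irf1 window lies at chr11:53769764-53770013 on the plus strand, with a GAS match beginning 90 bases and a κB match 13 bases upstream of the start. The Irf2 window lies at chr8:46739495-46739744 on the plus strand. It was the only one of the 11 to hold all 3 motifs, with the ISRE core starting 241 bases, GAS 224 bases and the κB match 17 bases upstream. Matches did not overlap in any of these windows. The Irf8 window at chr8:120736108-120736357, also on the plus strand, held 2 GAS matches, starting 171 and 153 bases upstream. The windows of Irf3, Irf4, Irf5, Irf7 and Irf9 held no match, nor did the second windows of Irf1 and Irf8. A match is a description of the sequence, and no binding was measured here.

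Irf2, the repressor that competes with IRF1, stood at 7.44, 7.37 and 7.63 (log2) on the 3 MyD88-ko arrays and at 8.29 and 7.92 on the 2 WT arrays. Every MyD88-ko array was below both WT arrays. The MyD88-ko mean was 7.48 ± 0.13 (SD, n = 3) and the WT mean 8.11 ± 0.26 (SD, n = 2). The difference was -0.63 with a standard error of 0.15 and a 95% interval of -0.998 to -0.26, the one member interval that did not include 0. It did not pass over all genes (limma, adjusted p = 0.204, unadjusted p = 0.0058). Its rank by p was 548 of 19505 genes. With each array left out in turn the difference stayed between -0.81 and -0.44, and no such run passed over all genes.

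Irf1, the interferon-induced activator, stood at 7.87, 7.11 and 7.91 on the MyD88-ko arrays and at 8.95 and 7.63 on the WT arrays. WT replicate 1 was far above the other 4 arrays, while WT replicate 2 lay inside the MyD88-ko range. The MyD88-ko mean was 7.63 ± 0.45 (SD, n = 3) and the WT mean 8.29 ± 0.94 (SD, n = 2). The difference of -0.66, with a 95% interval of -1.70 to 0.37, missed the threshold (limma, adjusted p = 0.573). Without WT replicate 1 it was -1.2e-04, and without WT replicate 2 it was -1.32. The difference of Irf1 thus rested on WT replicate 1. The gap of 1.32 between the WT arrays was wider than that of 99.5% of all genes, whose median gap was 0.17.

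Irf9, the DNA-binding subunit of ISGF3, stood at 6.12, 5.71 and 6.17 on the MyD88-ko arrays and at 6.58 and 6.27 on the WT arrays. The groups did not overlap, but the lower WT array was close to the highest MyD88-ko array, and all values were under the background limit. The MyD88-ko mean was 6.00 ± 0.25 (SD, n = 3) and the WT mean 6.42 ± 0.22 (SD, n = 2). The difference of -0.42 had a 95% interval of -0.86 to 0.02 and did not pass (limma, adjusted p = 0.414). It was -0.27 without WT replicate 1 and -0.28 without MyD88-ko replicate 2. Its partner Stat2 had a difference of -0.56 with overlapping arrays (limma, adjusted p = 0.603).

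Irf7, the master inducer of interferon alpha genes and itself induced by ISGF3, stood at 7.35, 6.28 and 7.87 on the MyD88-ko arrays. The WT arrays were at 7.92 and 6.79. Both genotypes had high and low arrays, and the ranges overlapped almost fully. The MyD88-ko mean was 7.17 ± 0.81 (SD, n = 3) and the WT mean 7.36 ± 0.80 (SD, n = 2). The difference was -0.19 with a 95% interval of -1.46 to 1.08 (limma, adjusted p = 0.907). The sign depended on single arrays, at 0.37 without WT replicate 1, 0.25 without MyD88-ko replicate 2 and -0.75 without WT replicate 2. The spread within genotypes was large: the range over the MyD88-ko arrays (1.59) was wider than that of 99.9% of all genes, and the WT gap (1.13) wider than that of 99.1%.

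Irf3, the latent factor that starts interferon beta transcription, stood at 5.64, 5.87 and 5.80 in MyD88-ko and at 5.96 and 5.86 in WT. The arrays lay close together in both genotypes and overlapped. The difference was -0.14 with a 95% interval of -0.42 to 0.14 (limma, adjusted p = 0.652), at a level under the background limit. It was -0.077 without MyD88-ko replicate 1 and -0.093 without WT replicate 1.

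Irf5, which acts below MyD88 on inflammatory cytokine genes, stood at 6.45, 6.73 and 6.84 in MyD88-ko and at 6.57 and 6.73 in WT. Both WT arrays lay within the MyD88-ko range. The MyD88-ko mean was 6.67 ± 0.20 (SD, n = 3) and the WT mean 6.65 ± 0.12 (SD, n = 2). The difference of 0.02 had a 95% interval of -0.33 to 0.38 (limma, adjusted p = 0.963). Its sign turned without MyD88-ko replicate 2 or 3, or without WT replicate 1.

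Irf8, the lineage factor of monocytes and dendritic cells, stood at 7.13, 6.73 and 7.20 in MyD88-ko and at 6.92 and 7.01 in WT. Both WT arrays fell between the MyD88-ko arrays. The MyD88-ko mean was 7.02 ± 0.25 (SD, n = 3) and the WT mean 6.96 ± 0.07 (SD, n = 2). The difference of 0.05 had a 95% interval of -0.34 to 0.45 (limma, adjusted p = 0.917), so the data are compatible with a change of up to that size in either direction. Its sign turned without MyD88-ko replicate 1 or 3.

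Irf4, the relative of Irf8 that acts in alternative macrophage activation and is also active in melanocytes, stood at 4.10, 4.91 and 5.57 in MyD88-ko. The WT arrays were at 4.68 and 4.78, inside that range. All values were under the background limit, and the MyD88-ko range of 1.47 was wider than that of 99.8% of all genes. The difference of 0.13 had a 95% interval of -0.83 to 1.09 (limma, adjusted p = 0.917), and it was -0.22 without MyD88-ko replicate 3.

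**Figure D2:**
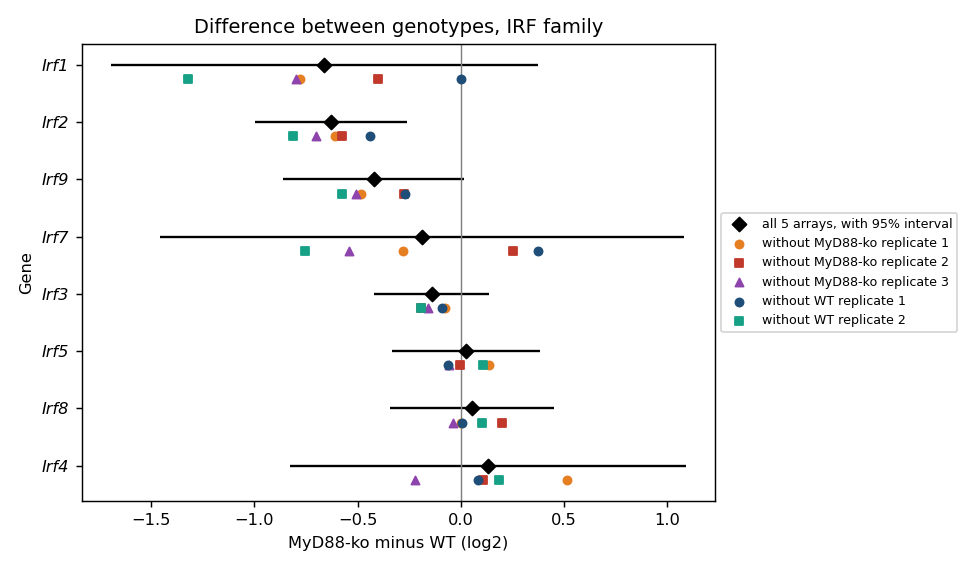
Log2 difference MyD88-ko minus WT of each IRF gene, as a black diamond with its 95% interval from limma, and below it the difference with each array left out in turn as coloured markers. The interval of Irf2 (-0.998 to -0.26) is the one that does not include 0, and Irf1 moves from -1.32 to about 0 depending on which WT array is left out.

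The members fell into contrasting patterns over the 5 arrays, a description made after the values were seen. In Irf1, Irf2, Irf7 and Irf9, WT replicate 1 was the highest array and MyD88-ko replicate 2 the lowest. That order held for 4 of 8 members, against 7.38% of all genes. It also held for 17 of 22 measured ISGF3 targets, the genes that answer type I interferon, and for 13 of 21 targets of IRF1 and interferon gamma. The order was also that of 5 of 8 cytokine genes linked to IRF5 and of 4 of 6 non-classical monocyte markers. After each gene was centred on its mean over the 5 arrays, the ISGF3 targets had medians of 0.08, -0.66 and 0.02 on the MyD88-ko arrays and 0.69 and -0.09 on the WT arrays. The corresponding values of Irf1 were -0.02, -0.78 and 0.01, then 1.06 and -0.26. Irf3, Irf5, Irf8 and Irf4 did not share this order.

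Markers of B16 melanoma cells also differed between arrays within genotypes. MyD88-ko replicate 2 and WT replicate 2 were both lower than the other 3 arrays for all 7 melanoma markers, for 14 of 22 ISGF3 targets and for 10 of 21 IRF1 targets. Among the members the same held for Irf1 and Irf7, and over all genes for 7.04%. Summed on the linear scale, the 7 markers (Tyr, Tyrp1, Dct, Pmel, Mlana, Sox10 and Mitf) reached 4640, 3550 and 4910 on the MyD88-ko arrays and 4880 and 3420 on the WT arrays. Of the 7, 5 were above the background limit on all arrays. The part of tumour-cell RNA in the spread of Irf1 and Irf7 was not tested.

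**Figure D3:**
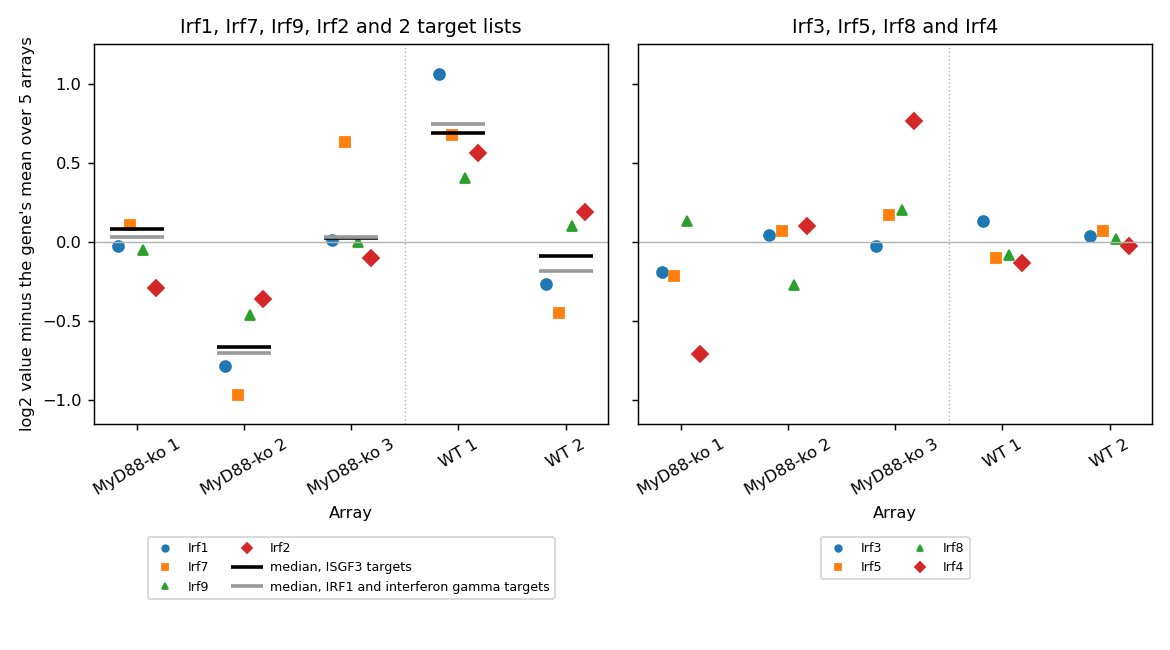
Log2 value of each IRF gene minus its mean over the 5 arrays, by array, with Irf1, Irf7, Irf9 and Irf2 on the left and Irf3, Irf5, Irf8 and Irf4 on the right. Horizontal bars on the left are the medians of 22 ISGF3 targets (black) and 21 targets of IRF1 and interferon gamma (grey), which are highest on WT replicate 1 and lowest on MyD88-ko replicate 2, as are the 4 genes on the left.

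Among 2991 other genes above the background limit on all arrays, those most like a member were found by the root mean square difference between centred profiles over the 5 arrays. Closest to Irf1 were Cd72 (0.11), Samhd1 (0.19) and Slfn5 (0.19). Samhd1 is a dNTP hydrolase that restricts viruses, and Slfn5 belongs to the interferon-induced Schlafen family. Closest to Irf2 were the elongation factor gene Tcea1 (0.03), the chaperone gene Dnajb1 (0.04) and the splicing factor gene Tra2a (0.06). Closest to Irf8 were Ttc39b (0.04), Ago2 (0.04) and Bsg (0.05). Between members, Irf3 with Irf5 (0.14) and Irf2 with Irf9 (0.15) were the closest pairs.

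None of the measured genes that feed the IRFs passed over all genes. Of 21 listed genes of interferon induction 15 were found by symbol. Mb21d1, Tmem173, Traf3, Irak1, Irak4 and Chuk were not, so nothing is said of them here. Of the 15 measured genes 10 were negative, against 46.9% of all genes, and the median difference was -0.14. That median was -0.081 without MyD88-ko replicate 3 and 0.011, with 6 of 15 negative, without WT replicate 2. Mavs, the mitochondrial adaptor of the RNA sensors, had a difference of 0.52 (limma, adjusted p = 0.194), and Unc93b1, the chaperone of endosomal Toll-like receptors, of 0.40 (limma, adjusted p = 0.245). Ikbke, one of the IRF3 and IRF7 kinases, had -0.61 (limma, adjusted p = 0.369). Of 15 interferons, receptors and their kinases 11 were negative, against 46.9% of all genes. The arrays of the genotypes did not overlap for 6, all lower in MyD88-ko, against 27.8% of all genes (12.9% counting those lower in MyD88-ko). Among the 6 was Ifnb1, which was under the background limit on all arrays. The median of these 15 was -0.078, and it was -0.145 without WT replicate 1 and -0.141 without WT replicate 2. The interferon genes Ifnb1, Ifna1, Ifna2, Ifna4, Ifng, Ifnl2 and Ifnl3 nowhere reached the background limit.

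Some genes of the interferon receptors had negative differences that did not pass. Jak2, the kinase of the interferon gamma receptor, stood at 6.59, 6.86 and 7.48 in MyD88-ko and at 8.60 and 7.98 in WT, with no overlap, and its difference of -1.31 missed the threshold (limma, adjusted p = 0.189). The type I receptor chains Ifnar2 and Ifnar1 had differences of -0.45 and -0.35. Of 11 measured DNA-binding partners of IRFs none passed, 5 were negative and the median was 0.10, which turned to -0.057 without MyD88-ko replicate 2 and to -0.034 without WT replicate 2. Spi1, which encodes PU.1, stood at 11.64, 11.69 and 11.60 in MyD88-ko and 11.68 and 11.68 in WT. Irf2bp2, an IRF2 corepressor, had a difference of -0.30, Batf, a partner of IRF4 and IRF8, of -0.41, and Irf2bpl of 0.39; all 3 missed the threshold (limma, adjusted p = 0.346, 0.398 and 0.451). Batf was above the background limit on 1 WT array and on no MyD88-ko array.

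Most genes of the target lists had negative differences, against 46.9% of all genes, but counts and amounts depended on single arrays. Of 22 ISGF3 targets none passed and 18 were negative, with a median of -0.52. That median was -0.12 without WT replicate 1, -0.26 without MyD88-ko replicate 2 and -0.92 without WT replicate 2. With the replicate number as a block, which takes MyD88-ko replicate 3 out of the contrast, 2 passed (limma, lowest adjusted p = 0.029). Oas2, an antiviral oligoadenylate synthetase, had a difference of -1.36 (limma, adjusted p = 0.263), Parp14 of -0.62 and the dynamin-like GTPase gene Mx2 of -0.80. Of these 22 genes, 1 was above the limit on all arrays and 9 on none. Of 21 targets of IRF1 and interferon gamma none passed and 19 were negative, with a median of -0.46. Without WT replicate 1, 9 of the 21 were negative and the median turned to 0.03. The median was -0.19 without MyD88-ko replicate 2 and -1.03 without WT replicate 2. Il15 had a difference of -0.71 (limma, adjusted p = 0.258), the class II transactivator gene Ciita of -1.13 and the inflammasome protease gene Casp1 of -0.84. Of these 21 genes, 5 were above the limit on all arrays and 7 on none, Il15 and Casp1 among the latter. Ciita was above it on 1 WT array only.

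Among lists linked to IRF5, IRF8 and IRF4, 1 gene passed. Of 8 measured cytokine genes linked to IRF5, 3 were above the background limit on all arrays and 4 on none. All 8 were negative with a median of -0.90 (-0.88 over those 3). The median of the 8 stayed between -1.09 and -0.82 with each array left out. Irf5 itself, at a difference of 0.02, did not share that shift. None of these 8 passed, but 1 did with quantile normalization again, with equal array medians and with a filter at the 25th percentile, and 3 did with the replicate block (limma, lowest adjusted p = 0.040, 0.037, 0.047 and 0.017). The nearest were Il6, which averaged 3.04 and 5.59 and nowhere reached the background limit (limma, adjusted p = 0.059), the chemokine gene Ccl3 with a difference of -0.88 (adjusted p = 0.092) and Tnf with -1.43 (adjusted p = 0.123).

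Of 8 measured genes linked to IRF8 and PU.1, 6 were negative with a median of -0.33 (-0.19 without WT replicate 1), and Il1b fell. Il1b, which encodes the cytokine IL-1β, stood at 8.59, 8.47 and 9.13 in MyD88-ko and at 11.33 and 10.79 in WT, a 5.02-fold lower level (limma, adjusted p = 0.041). It did not pass when any 1 array was left out. Of 13 genes linked to IRF4 none passed, 10 were negative and the median was -0.76 (-0.44 without WT replicate 2, and -0.45 without MyD88-ko replicate 2). Over the 7 of them above the background limit on all arrays the median was -0.15. Chil3, a chitinase-like protein gene, was at least 1.55-fold lower (limma, adjusted p = 0.111). It is also counted among the classical monocyte markers below, and Flt3 of this list among the conventional dendritic cell markers. The histone demethylase gene Kdm6b had a difference of -1.10 (limma, adjusted p = 0.137) and Prdm1, a repressor gene, of -1.03 (limma, adjusted p = 0.189). Prdm1 was under the background limit on all arrays.

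**Figure D4:**
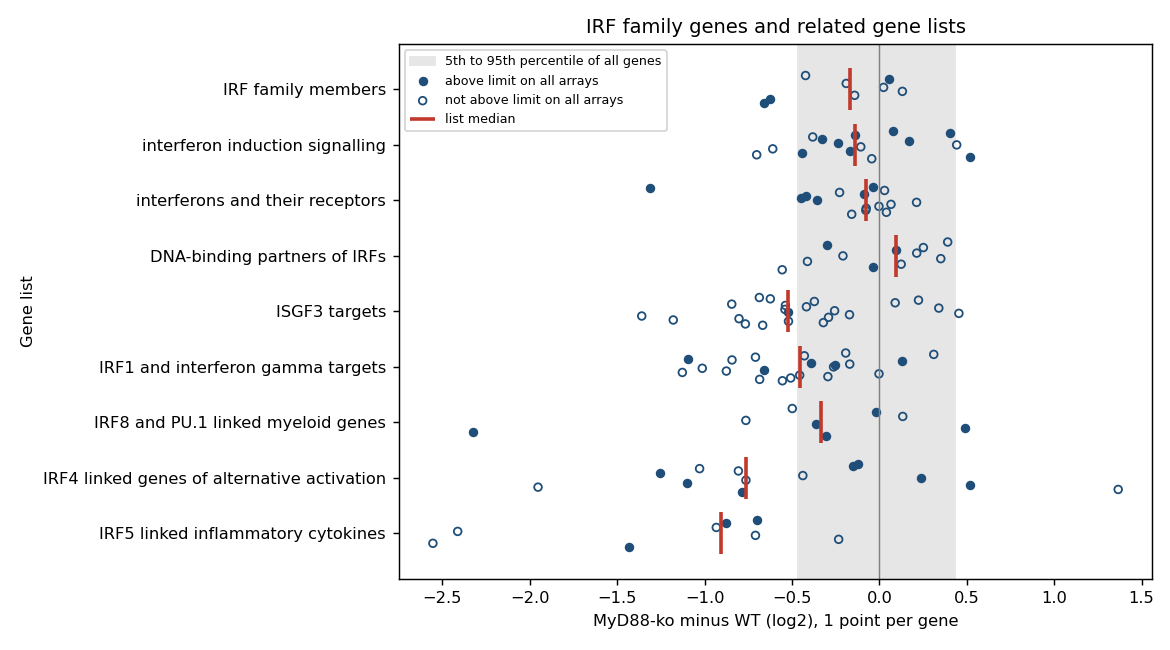
Log2 difference MyD88-ko minus WT for the 8 IRF genes and for each measured gene of 8 related lists, filled where the gene was above the background limit on all arrays, with list medians as red bars. The grey band runs from -0.47 to 0.43, the 5th to 95th percentile of all genes. The IRF genes have a median of -0.17, against -0.90 for the cytokine genes linked to IRF5.

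Markers of other myeloid cells moved with genotype beside these results. Summed on the linear scale, 11 neutrophil markers lay between 371 and 538 in MyD88-ko and between 2500 and 3670 in WT, and 5 of them passed, all lower. The 7 classical monocyte markers lay between 1600 and 2520 against 4160 and 5660, with 1 passing and 5 above the limit on all arrays. The 6 non-classical monocyte markers lay between 757 and 1030 in MyD88-ko and at 1540 on both WT arrays, and the 8 conventional dendritic cell markers between 258 and 489 against 528 and 786, with none passing in either list. Such sums mostly reflect the few most abundant genes. Of the 6 non-classical markers, 2 were above the limit on all arrays, and 5 differences were negative and 1 positive. Of the 8 dendritic cell markers, 1 was above it on all arrays and 6 on none. Macrophage markers were high in both genotypes, 11600 to 12000 against 10500 to 11400 over 10 genes, 9 of them above the limit on all arrays. These sums hide opposite shifts, since 3 of the 10 differences were negative and 7 positive, from -0.87 to 0.94, and none passed. The arrays of the genotypes did not overlap for 8 of the 10, against 27.8% of all genes. Xcr1 and Clec9a of dendritic cells and Siglech of plasmacytoid dendritic cells were under the limit on all arrays, as were all measured T, B and NK cell markers. Ccr7 and Tcf4, of the same 2 dendritic cell lists, were above it on all 5 arrays, and Cd209a and Bst2 on 4. The 7 plasmacytoid markers lay between 819 and 880 against 771 and 790, but 1 of them was above the limit on all arrays and 5 on none. In bulk RNA, fewer cells of a type and less RNA per cell cannot be told apart, and the part of these cells in the differences of Irf2, Irf9 and the target lists was not tested.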

How the data were processed

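RNA of 5 sorted samples was measured on Affymetrix mouse arrays from 100 ng of total RNA each, per the labels' protocols. The deposited log2 values were the RMA output of Affymetrix Expression Console 1.1, as the submitters' processing notes record, and the log2 scale was also read from their range. RMA subtracts background, equalizes quantiles and summarizes probes, which compresses low values. No genome build was given in the sources used. Of 28846 rows, 19572 probe sets had 1 gene symbol in the platform annotation (none had several) and 9274 had none listed. All 19572 matched the RefSeq table of GRCm38.p6 by gene identifier. For 55 genes the probe set with the highest mean was kept.

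The test was limma 3.58.1 (R 4.3.3) on all 19505 genes at once (lmFit, eBayes, genotype only, 3 residual degrees of freedom). It was tested on simulated data with known answers, whose shifts were larger than any IRF difference. Recovery of differences as small as those of the IRFs was not tested. Adjusted p-values cover all genes. The members, gene lists and background limit were chosen with earlier results of these data known. Text names all members, Myd88, and per IRF-related list the passing genes or else the 3 with the lowest p. Stat2, Spi1, the interferon genes and single dendritic cell and melanoma markers, named beyond that rule, and all counts of array order were chosen after values were seen, and the κB pattern replaced a narrower one. "At least" folds set a gene against the limit where all arrays of 1 genotype lay under it. Alternatives were 2 scalings, 2 filters, probe set means, 2 moderations, a replicate block, a covariate averaging 3 Y-linked genes and each array left out. Replicate numbers were not taken as pairs in the main fit. MyD88-ko replicate 3 had no WT array of its number, so the block took it out of the genotype contrast. The block also left fewer residual degrees of freedom than the main fit. Its variances thus lean more on those of other genes, and its counts of passing genes are not directly comparable. With 5 arrays and no read depth, the number of arrays limits the precision.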

Additional observations from a re-analysis of the deposited data

How the results depend on the processing

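There were 14 alternatives. In those that kept both WT arrays no IRF member passed over all genes (limma). Irf2 had an unadjusted p under 0.05 in each of these. Under that p were 4 members with the replicate block, beside 2508 of all genes. Quantile normalization again and equal array medians each gave 2 members, beside 2601 and 2432 genes. The others that kept both WT arrays gave 1 member, Irf2, as did the main run, where 12.6% of all genes were under that p. All alternatives reuse the same 5 arrays, so the repeat of Irf2 is not independent evidence. Irf1, Irf2, Irf3 and Irf9 kept a negative difference throughout, and all 8 members were negative with the replicate block and with the Y-linked covariate (medians -0.37 and -0.69). The sign of Irf4 turned with the replicate block (-0.22), with the Y-linked covariate (-0.72) and with arrays left out (-0.22 to 0.51). That of Irf5 turned with the block (-0.058), with the covariate (-0.16) and with arrays left out (-0.060 to 0.14). Irf8 turned with the block (-0.036), the covariate (-0.16) and arrays left out (-0.036 to 0.20), and Irf7 with arrays left out (-0.75 to 0.37). The Y-linked mean was 5.51, 5.51 and 4.59 on the MyD88-ko arrays and 5.89 and 6.03 on the WT arrays. The genotypes did not overlap in it, so the covariate cannot be told apart from genotype and is no clean adjustment for sex. The count of 37 genes was 56 with quantile normalization again, 60 with equal array medians, 70 with the replicate block and 0 with the Y-linked covariate (limma, 1818 at an unadjusted p under 0.05). It was 0 to 1 with 1 array left out, where 1691 to 3762 had an unadjusted p under 0.05. The cause was not tested. Same-numbered arrays deviated together only weakly (r = 0.059 and 0.105 across genes), and the numbers were not taken as pairs. With 2 WT arrays the WT deviations mirror each other, so these values do not settle whether the arrays were paired. With 1 WT array left out, its spread was taken from MyD88-ko. Irf3, Irf4 and Irf9 were under the background limit, where RMA compresses differences.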
